A study of Homo sapiens with 36 samples.

Results

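The nuclear-encoded respiratory chain genes are the genes of the cell nucleus whose products build the 5 enzyme complexes of oxidative phosphorylation. They were chosen by symbol, as the NDUFA, NDUFB, NDUFC, NDUFS, NDUFV, UQCR, COX4 to COX8 and ATP5 families and the 4 SDH genes, leaving out pseudogenes, read-through genes and the NDUFAF assembly factors. This gave 89 of the 58721 genes in the deposited table. By their known roles 37 belong to complex I, 4 to complex II, 9 to complex III, 19 to complex IV (NDUFA4 and NDUFA4L2 among them) and 20 to complex V. Of the 89, 86 had enough counts to be tested. The other 3 are COX7B2, COX8C and ATP5MGL, with 0, 5 and 4 counts over all libraries.

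Complexes I and II pass electrons from NADH and succinate to ubiquinone, complex III passes them to cytochrome c and complex IV to oxygen, while complex V (ATP synthase) uses the resulting proton gradient to make ATP. A small set of core subunits is encoded in mitochondrial DNA and all other subunits in the nucleus. Pluripotent stem cells are known for their reliance on glycolysis and heart muscle for its dense mitochondria, and several subunits have a second gene whose product replaces the common one in muscle, testis or low oxygen.

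The samples are cells of H1, an established line of human embryonic stem cells, in 2 genotypes labelled PERK KO and wild type, from which polyadenylated RNA was sequenced. PERK, encoded by EIF2AK3, is a kinase of the endoplasmic reticulum that slows translation under stress. Both genotypes were put through the same cardiomyocyte differentiation, with CHIR99021, an activator of WNT signalling, from days 0 to 1, IWP2, a WNT inhibitor, from days 2 to 5, heparin from days 1 to 7 and insulin from day 7. Each genotype has 3 libraries at days 0, 1, 2, 3, 5 and 10, 36 in all, and day 0 is the undifferentiated state. These days are those of the sample labels; the series' design text names days 0, 2 and 6 for collection, and the difference could not be settled from the sources used here. The sources used here do not give how PERK was disrupted, whether the PERK KO line is 1 clone or whether replicates are separate cultures, so p-values measure the spread between these libraries, which may be technical. EIF2AK3 itself was not called between genotypes at any day (adjusted p 0.127 to 0.981 in edgeR), with 11.9 to 22.9 CPM (counts scaled to the library's total) over the PERK KO libraries and 10.1 to 28.1 CPM over the wild-type ones. Its RNA level therefore does not check the label. The libraries held 14002137 to 25860481 counts (median 18227374). Of all counts, members took 0.620% to 1.51%. The day 0 libraries carried the markers of the labelled cell type: 6 pluripotency markers summed to 5573 to 6867 CPM in PERK KO and 5377 to 5789.6 CPM in wild type, none of the 6 under 1 CPM.

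Of all libraries 2 stood most clearly apart from their own group. PERK KO day 0 replicate 2 had a mean transcript length, weighted by expression, of 1736 nt, against 2342 to 2815 nt in the other 35 libraries. Relative to the mean of the other libraries of its group, genes under 1000 nt lay a median of 0.78 higher on the log2 CPM scale and genes over 3000 nt a median of 0.67 lower. The members are short, with a median effective length of 493 nt against 1958 nt over all 19772 tested genes, and 82 of the 86 lay above the mean of the group's other libraries there (median 1.37 higher on the log2 scale). Counts of called members and values that rest on PERK KO day 0 are therefore given with and without this library. Wild-type day 2 replicate 3 was the other: its counts differed from those of replicates 1 and 2 by a chi-square per degree of freedom of 81.8 and 76.6, where replicates 1 and 2 differed by 4.29 (163 and 151 for PERK KO day 0 replicate 2 against replicates 1 and 3, which differed by 4.39). Day 2 counts are also given without both. The wild-type day 3 libraries all differed from each other, by 26.5 to 95.6. Wild-type day 0 replicate 1 stood apart to a lesser degree, by 19.3 and 25.8 from replicates 2 and 3, which differed by 3.78. In it 76 of the 86 members lay above the mean of the group's other libraries (median 0.25 higher on the log2 scale). It is part of the reference group of the wild-type course.

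**Figure D1:**
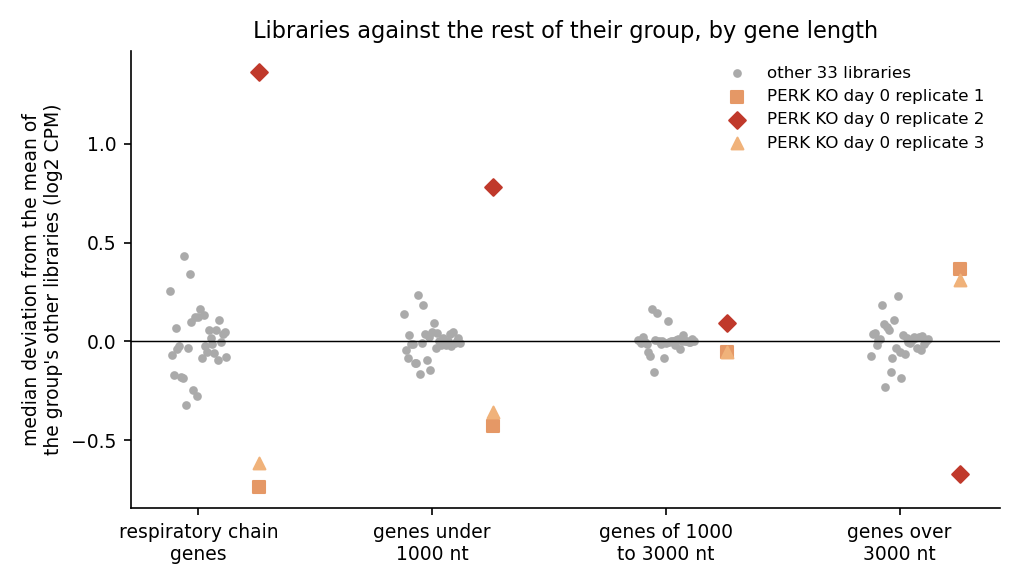
Each point is 1 library's median deviation from the mean of the other libraries of its group, in log2 CPM (vertical axis), for the 86 tested respiratory chain genes and for all tested genes of 3 length classes (horizontal axis). PERK KO day 0 replicate 2 (diamond) lies at 1.37 for the respiratory chain genes, 0.78 for genes under 1000 nt and -0.67 for genes over 3000 nt, outside the range of the 33 libraries of the other 11 groups (grey) in those 3 classes. Replicates 1 and 3 of PERK KO day 0 (square and triangle) are drawn apart because their own deviations are taken from a mean that includes replicate 2.

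To see the level of the whole set, TPM values, which are scaled for gene length and the library's total, were summed over the 89 genes. At day 10 the sums were 16027, 15906 and 15328 TPM in the PERK KO libraries, against 28841, 30613 and 29867 TPM in wild type. The groups did not overlap, and the ratio of the geometric means of PERK KO and wild type was 0.529. At day 3 the order was the opposite, with 21243, 20262 and 20796 TPM in PERK KO and 16225, 16677 and 17424 TPM in wild type (ratio 1.24), again without overlap. The day 2 ratio was 1.12 (log2 0.16, SD of the log2 ratio 0.055), while those of days 1 and 5 were within their SD of 1 (log2 0.012, SD 0.048, and log2 0.022, SD 0.095). At day 0 the PERK KO libraries held 17605, 28882 and 17767 TPM, where the high value is replicate 2, and wild type held 21369, 19067 and 17866 TPM. Fewer cells that express these genes and less RNA of them per cell cannot be told apart in bulk libraries, here or in any result that follows.

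**Figure D2:**
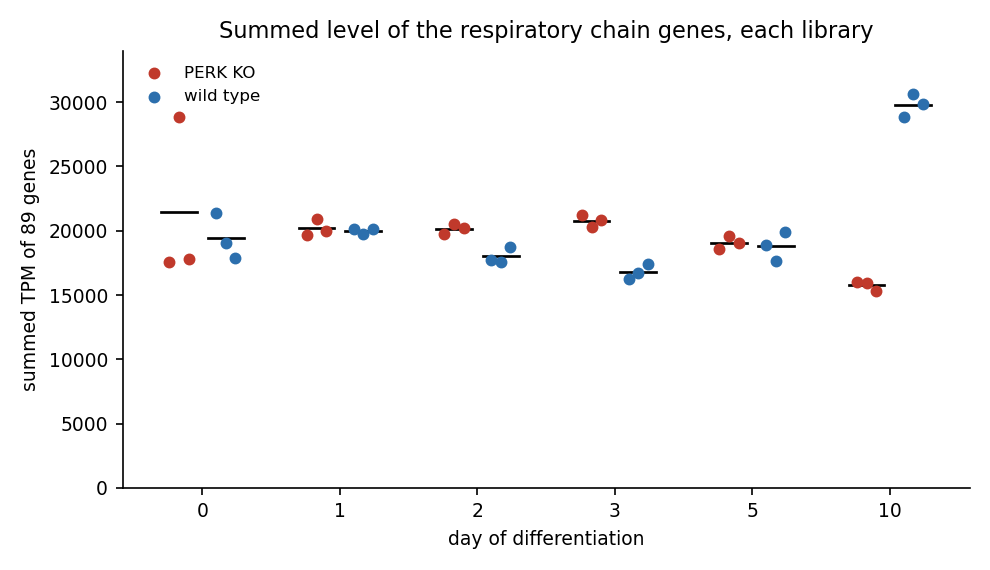
Summed TPM of the 89 genes (vertical axis) in each library by day (horizontal axis), PERK KO in red left of wild type in blue, with black lines at group means. The PERK KO libraries lie at 15328 to 16027 at day 10 and the wild-type ones at 28841 to 30613, and the single high PERK KO point at day 0 (28882) is replicate 2.

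In wild type the set rose late. At day 10 against day 0, 57 of the 86 tested members were higher and 3 lower in edgeR's quasi-likelihood test (Benjamini-Hochberg adjusted p under 0.05 over all tested genes), with a median log2 fold change of 0.73 against 0 over all genes. In this comparison 69.2% of all tested genes were called, 34.9% as higher and 34.3% as lower. By complex, 18 of 37 members of complex I, 2 of 4 of complex II, 8 of 9 of complex III, 16 of 17 of complex IV and 13 of 19 of complex V were higher. Up to day 5 the calls were mixed, with 17 higher and 10 lower at day 1, 13 and 12 at day 2, 8 and 17 at day 3, and 14 and 11 at day 5. The shares of all genes called at those days were 44.6% (20.9% higher, 23.7% lower), 50.5% (25.4% and 25.1%), 56.8% (29.3% and 27.5%) and 61.9% (31.4% and 30.5%), each above the members' share of 31.4%, 29.1%, 29.1% and 29.1%. PERK KO day 0 replicate 2 enters these comparisons only through the shared gene filter, scaling, spread and p-value adjustment. Without it, the members called were 43, 36, 41, 42 and 71 from day 1 to day 10. Of all genes, 49.7%, 54.6%, 60.6%, 64.9% and 71.8% were called in that fit. The members' share was then 50.0% at day 1, no longer below that of all genes, and 41.9%, 47.7% and 48.8% at days 2, 3 and 5. Without both libraries that stood apart, 15 were higher and 24 lower at day 2, against 52.6% of all genes.

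Cell type markers moved over the same days. In wild type, 8 cardiomyocyte markers summed to 13219 to 17367 CPM at day 10 and 28.8 to 33.6 CPM at day 0, where MYH6, MYH7, MYL7 and NKX2-5 lay under 1 CPM. The 6 pluripotency markers summed to 412 to 533 CPM at day 10, with NANOG and SOX2 under 1 CPM, and to 5377 to 5789.6 CPM at day 0. The 5 endoderm and liver markers summed to 1425 to 2112 CPM at day 10 and 0.631 to 2.11 CPM at day 0, each of the 5 under 1 CPM at day 0. The part of these markers in the members' rise was not tested.

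UQCRC2, a core protein of complex III, had 356, 405 and 353 CPM in wild type at day 10, against 106, 124 and 128 CPM at day 0 (log2 fold change 1.64, SE 0.10, adjusted p = 3.99e-15, edgeR). NDUFA10, an accessory subunit of complex I, had 179, 203 and 188 CPM at day 10, against 68.5, 60.2 and 59.1 CPM at day 0 (log2 fold change 1.60, SE 0.11, adjusted p = 4.4e-14, edgeR). In both genes every day 10 library lay above every day 0 library. ATP5F1B, the catalytic beta subunit of ATP synthase, became the member with the highest level per length, at 1794 ± 102 TPM at day 10 (SD, n = 3), against 659.6 ± 20.0 TPM at day 0. The highest member at day 0 had been ATP5MF, a membrane subunit of complex V, at 959.8 ± 149 TPM. Its spread overlaps that of COX6B1 (918 ± 44.5 TPM) and COX6A1 (865 ± 144 TPM). In CPM, ATP5MF had 72.2 ± 3.08 at day 0, against 734 ± 27.4 for ATP5F1B. ATP5MF shares exons with the read-through gene ATP5MF-PTCD1, so its level per length is uncertain. The 3 members that fell were COX6B2, ATP5S and NDUFC2. ATP5S turned to a called rise with a transcript length offset (log2 0.78, adjusted p = 0.0116, edgeR). Without PERK KO day 0 replicate 2 the counts were 63 higher and 8 lower.

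In PERK KO the set was low at the same day. At day 10, 68 of 86 members had less RNA in PERK KO than in wild type and 5 had more, with a median log2 fold change of -1.08 against 0 over all genes. In this comparison 67.3% of all tested genes were called, 34.0% as lower and 33.3% as higher, so the members' share (84.9%) lay above the background, and their calls were nearly all downward where those of all genes were evenly split. Lower in PERK KO were 30 of 37 members of complex I, 3 of 4 of complex II and 6 of 9 of complex III. In complexes IV and V they were 13 of 17 and 16 of 19. Without PERK KO day 0 replicate 2 the counts were 72 lower and 5 higher, with 69.9% of all genes called.

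**Figure D3:**
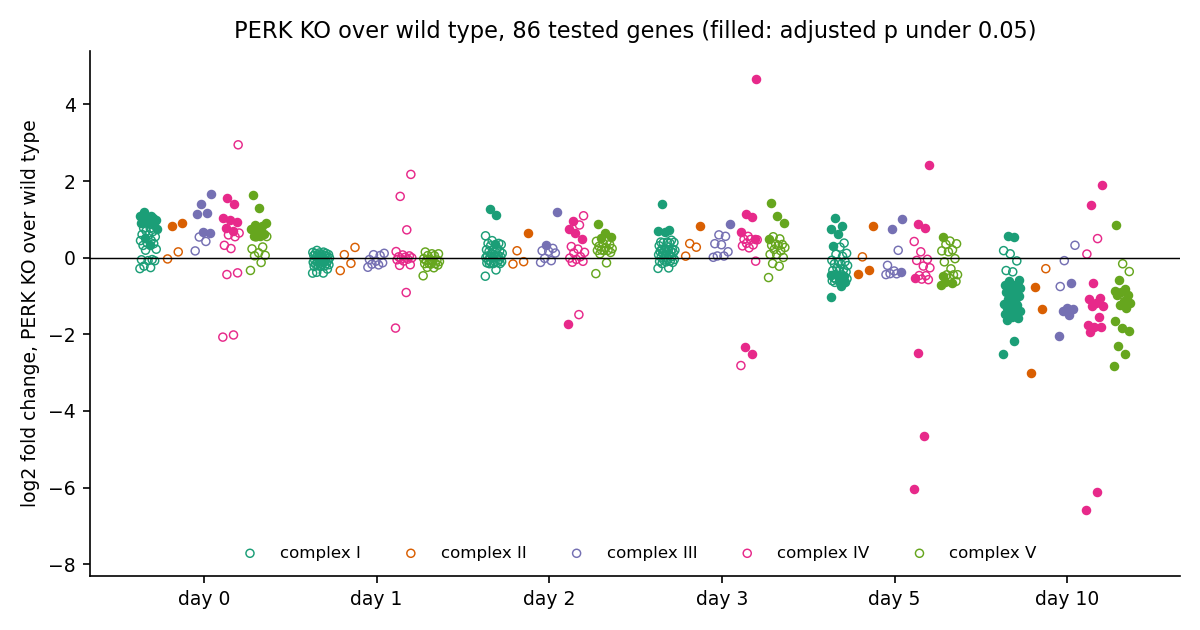
Log2 fold change of PERK KO over wild type (vertical axis) for the 86 tested genes at each day (horizontal axis), coloured by complex, with filled circles for adjusted p under 0.05 in edgeR on all 36 libraries. At day 10, 68 genes are filled below 0 and 5 above it, while at day 1 none is filled.

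The day 10 libraries also differed in cell type markers. Summed over 8 cardiomyocyte markers, PERK KO had 111 to 423 CPM and wild type 13219 to 17367 CPM. Each of the 8 was above 1 CPM in every library of both genotypes. TNNT2, cardiac troponin T, had 28.8, 9.22 and 33.4 CPM in PERK KO and 1736, 1742 and 2031 CPM in wild type. The 5 neuroectoderm markers summed to 539 to 706 CPM in PERK KO, with SIX3, PAX6 and SOX3 above 30 CPM and SOX1 under 1 CPM, and to 2.16 to 2.80 CPM in wild type, where all but SOX3 lay under 1 CPM. Endoderm and liver markers (5 genes) summed to 400.3 to 703 CPM in PERK KO and 1425 to 2112 CPM in wild type. Endothelial markers (3 genes) summed to 16.1 to 35.8 CPM in PERK KO and 457 to 588 CPM in wild type, and the 2 tested of 3 fibroblast markers to 124 to 161 CPM in PERK KO and 2105 to 3503 CPM in wild type. Of those 10, none lay under 1 CPM in either genotype. What part these marker differences have in the members' day 10 differences was not tested. Within PERK KO, replicate 2 had a cardiomyocyte marker sum of 111 CPM and replicates 1 and 3 had 400.0 and 423 CPM. All of these lay below the lowest wild-type sum of 13219 CPM. The members' median deviations from the mean of the group's other libraries were 0.048, 0.038 and -0.079 (log2) in replicates 2, 1 and 3. Whether these deviations go with the marker sums was not tested.

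Of complex I, NDUFV1, the subunit that binds NADH, had 73.3, 71.5 and 71.2 CPM in PERK KO at day 10, against 250.1, 343 and 385 CPM in wild type (log2 fold change -2.18, SE 0.24, adjusted p = 3.31e-09, edgeR). NDUFS7, which holds an iron-sulfur cluster of the electron path, had 40.0, 41.4 and 34.5 CPM in PERK KO, against 173, 244 and 239.6 CPM in wild type (log2 fold change -2.50, SE 0.28, adjusted p = 4.88e-09, edgeR). NDUFA10 had 76.4, 70.4 and 76.0 CPM in PERK KO, against 179, 203 and 188 CPM in wild type (log2 fold change -1.35, SE 0.11, adjusted p = 2.87e-12, edgeR). In all 3 the groups did not overlap, with every PERK KO library below every wild-type one. The core subunit NDUFS1 differed less, at 0.70 lower in PERK KO on the log2 scale. It had 65.2 ± 2.81 CPM in PERK KO and 106 ± 14.4 CPM in wild type (SD, n = 3 each). NDUFA5 and NDUFC2, both accessory subunits, were the 2 of 37 that rose: NDUFA5 had 46.9, 42.1 and 45.7 CPM in PERK KO and 38.8, 27.3 and 24.2 CPM in wild type (log2 fold change 0.57, SE 0.25, adjusted p = 0.0399, edgeR), and NDUFC2 had 58.2, 55.02 and 53.5 CPM in PERK KO and 35.98, 35.1 and 43.8 CPM in wild type (log2 fold change 0.54, SE 0.24, adjusted p = 0.0465, edgeR). NDUFC2 shares exons with the read-through gene NDUFC2-KCTD14, so its counts are uncertain. The remaining 5 of the 37 were not called; their log2 fold changes ran from -0.37 for NDUFA13 to 0.18 for NDUFS4.

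Complex II has only 4 subunits, all nuclear, and they did not move alike. SDHA, the flavoprotein that oxidises succinate, had 44.1, 39.5 and 41.1 CPM in PERK KO at day 10, against 284, 351 and 377 CPM in wild type. All PERK KO libraries lay far below the lowest wild-type library, and the log2 fold change of -3.02 (SE 0.15, adjusted p = 1.29e-16, edgeR) had the smallest p of all 86 members. SDHB, the iron-sulfur subunit, had 25.5, 26.1 and 23.6 CPM in PERK KO and 58.6, 65.6 and 66.3 CPM in wild type (log2 fold change -1.34, SE 0.23, adjusted p = 9.85e-06, edgeR). SDHD, a membrane anchor, had 39.4, 33.5 and 37.8 CPM in PERK KO and 70.4, 65.6 and 51.3 CPM in wild type (log2 fold change -0.76, SE 0.19, adjusted p = 0.000672, edgeR). SDHC, the other anchor, had 122, 125 and 128 CPM in PERK KO and 150.4, 154 and 154 CPM in wild type; the groups did not overlap, but the test missed the threshold (log2 fold change -0.29, SE 0.13, adjusted p = 0.0553, edgeR) and passed it without PERK KO day 0 replicate 2 (adjusted p = 0.00624). The wild-type course differed among the 4 as well: against day 0, SDHA and SDHC were higher at day 10 (log2 1.64 and 0.55), while SDHB (0.13) and SDHD (0.15) were not called. SDHA lies at chr5:218241-256700 on the plus strand (GRCh38, GENCODE 29). Reads that map equally to SDHA and its pseudogenes could be split. The fit with added pseudogene counts held no pseudogenes of the SDH genes, so it cannot show the effect of such a split.

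The promoters of SDHA and SDHD are shown because SDHA held the most copies of the motif searched for NRF1, a transcription factor known for its sites in respiratory chain promoters, and SDHD was the single member with an ERR half-site in its window (beyond the stretch shown). The stretches are the 120 bases before the RefSeq start (GRCh38.p14), 5′ to 3′, with NRF1 motifs (GCGCA and GCGC with any base between them) and ETS cores (CCGGAAGT) in capitals on either strand.
SDHA, chr5:218200-218319, plus strand: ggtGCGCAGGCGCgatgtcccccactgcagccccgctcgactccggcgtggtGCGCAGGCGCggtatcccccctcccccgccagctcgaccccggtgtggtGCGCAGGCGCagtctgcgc
SDHD, chr11:112086753-112086872, plus strand: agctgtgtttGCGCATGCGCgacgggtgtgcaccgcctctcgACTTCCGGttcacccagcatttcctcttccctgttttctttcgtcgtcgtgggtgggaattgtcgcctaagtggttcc
The SDHA stretch holds 3 copies of the NRF1 motif and its full 300-base window 1 more. The SDHD stretch holds 1 NRF1 motif and 1 ETS core. RefSeq windows (250 bases before to 50 after the start) matched 72 of the 89 members. Among the 72 are COX7B2 and COX8C, which were not tested, and the COX8C window holds an NRF1 motif. Members were matched by Ensembl identifier, symbol or synonym and tested genes by Ensembl identifier only, so the shares compare only roughly. An NRF1 motif on either strand was in 17 of the 72 windows (23.6%), against 10.2% of 13490 windows of tested genes and 5.78% of all 35116 windows. ETS cores were in 13.9% of the members' windows, 7.42% of those of tested genes and 4.14% of all. YY1 cores (AAGATGGCG) were in 11.1%, 3.29% and 1.75%, and ERR half-sites (TCAAGGTCA), a motif of the oestrogen-related receptors, in 1.39%, 0.193% and 0.353%. Tested members with an NRF1 motif were lower at day 10 in 15 of 16 cases (median log2 fold change -0.99), and those without in 45 of 54 (median -1.13). A match is only a run of letters in the window and does not show that a factor binds there.

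In complex III both core proteins and the Rieske protein were lower in PERK KO at day 10. UQCRC1 had 139, 138 and 134 CPM in PERK KO at day 10, against 439, 581 and 671 CPM in wild type (log2 fold change -2.04, SE 0.24, adjusted p = 1.32e-08, edgeR). UQCRC2 had 151, 138 and 136 CPM in PERK KO, against 356, 405 and 353 CPM in wild type (log2 fold change -1.39, SE 0.10, adjusted p = 2.8e-13, edgeR). UQCRFS1, the Rieske iron-sulfur protein, was lower by 1.496 on the log2 scale. The groups of all 3 stood apart without overlap. The hinge protein gene UQCRH was lower by 0.67. It had 131 ± 4.66 CPM in PERK KO and 209 ± 21.3 CPM in wild type (SD, n = 3 each). Its near-identical copy UQCRHL was at 2.57 ± 0.207 CPM in PERK KO and 2.72 ± 0.312 CPM in wild type and was not called (adjusted p = 0.809); as the copies share sequence, the split of reads between them is uncertain. UQCRB, which supports the ubiquinone site, and UQCRQ were the others not called, at log2 0.32 and -0.75.

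Genes of the catalytic head and the membrane ring of complex V were lower in PERK KO at day 10. ATP5F1A, the alpha subunit, had 478, 444 and 472 CPM in PERK KO at day 10, against 1306, 1517 and 1559.7 CPM in wild type (log2 fold change -1.65, SE 0.14, adjusted p = 2.6e-11, edgeR). ATP5F1B had 568, 578 and 542 CPM in PERK KO, against 1614, 2050.1 and 2323 CPM in wild type (log2 fold change -1.83, SE 0.18, adjusted p = 2.94e-10, edgeR). ATP5F1D, the delta subunit of the central stalk, was lower by 2.51 on the log2 scale. ATP5F1E, its partner epsilon, was not called (log2 -0.16). The median effective length of ATP5F1E was 3234 nt, against 521 nt for ATP5F1D. ATP5F1E also overlaps exons of TUBB1 on the other strand, so its counts are uncertain and the 2 values may not compare. The 3 genes of the c-ring, which encode the same mature protein behind different import signals, were lower to unequal extents. ATP5MC1 had 12.95, 10.9 and 11.6 CPM in PERK KO, against 70.3, 89.4 and 91.3 CPM in wild type (log2 fold change -2.82, SE 0.26, adjusted p = 1.23e-10, edgeR), ATP5MC3 had 101, 91.5 and 89.8 CPM in PERK KO, against 394, 492 and 516 CPM in wild type (log2 fold change -2.31, SE 0.27, adjusted p = 9.77e-09, edgeR), and ATP5MC2 had 169, 167 and 167 CPM in PERK KO, against 306, 424 and 412 CPM in wild type (log2 fold change -1.18, SE 0.19, adjusted p = 2.22e-06, edgeR). ATP5IF1, the inhibitor that blocks ATP hydrolysis by the enzyme, had 56.5, 59.3 and 55.5 CPM in PERK KO and 79.6, 89.9 and 86.6 CPM in wild type (log2 fold change -0.58, SE 0.16, adjusted p = 0.00269, edgeR). ATP5S, also called coupling factor B and no core subunit, was the 1 gene of the family that was higher in PERK KO. It had 18.4 ± 1.28 CPM in PERK KO and 10.1 ± 2.31 CPM in wild type (SD, n = 3 each). Its log2 fold change was 0.85 (SE 0.16, adjusted p = 2.19e-05, edgeR). The direction turned with a transcript length offset (log2 -0.24, adjusted p = 0.453, edgeR).

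**Figure D4:**
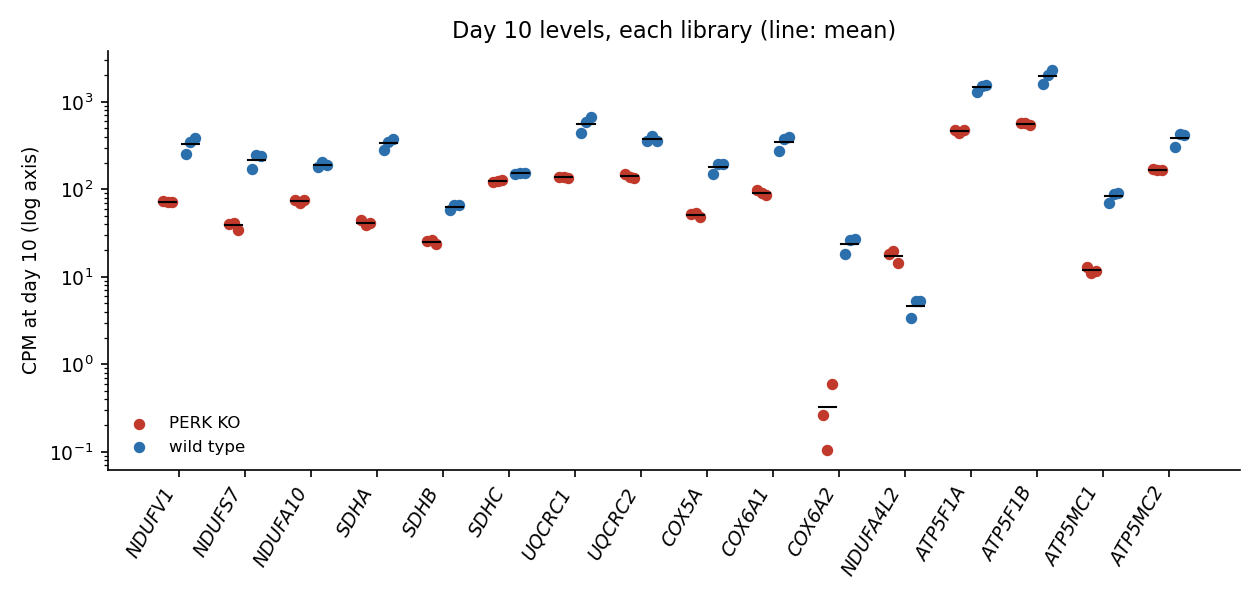
CPM at day 10 on a log axis (vertical) for 16 members (horizontal axis) in each library, PERK KO in red left of wild type in blue, with black lines at group means. The groups do not overlap in any of the 16, and NDUFA4L2 is the one shown with PERK KO above wild type.

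Complex IV holds most of the genes with tissue-specific copies. COX6A2, the form of subunit VIa of heart and skeletal muscle, had 0.262, 0.104 and 0.604 CPM in PERK KO at day 10, against 18.1, 26.1 and 26.7 CPM in wild type (log2 fold change -6.11, SE 0.49, adjusted p = 1.15e-11, edgeR). At every earlier day it was at most 0.648 CPM in any library of either genotype. COX6A1, the form of other tissues, had 97.2, 90.7 and 85.4 CPM in PERK KO and 272, 380.1 and 396 CPM in wild type. Its log2 fold change was -1.94 (SE 0.31, adjusted p = 2.83e-06, edgeR). Both were thus lower in PERK KO, but unequally. COX6A2 made up 0.476, 0.200 and 1.23% of the TPM of the pair in PERK KO and 10.7, 11.2 and 11.2% in wild type. COX7A1, the muscle form of subunit VIIa, had 1 count in all over the 3 PERK KO libraries at day 10 and 120 in wild type, a ratio of 0.00745 (95% counting interval 0.000187 to 0.0423). COX7A2, the form of other tissues, was lower in PERK KO by 1.27 on the log2 scale. COX7A2L, a related protein known for its part in supercomplexes, was lower by 1.19. COX5A is among the subunits with a single form or a dominant one. It had 51.8, 53.3 and 48.6 CPM in PERK KO and 150.0, 196 and 197 CPM in wild type. Its log2 fold change was -1.82 (SE 0.20, adjusted p = 2.23e-09, edgeR). Of the same kind, COX4I1, COX6B1, COX7B and COX8A were lower in PERK KO by 1.08, 1.54, 1.26 and 1.81.

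The promoters of the COX6A pair are shown because the 2 genes encode forms of 1 subunit and differed between genotypes to different extents. These are the 120 bases before the RefSeq start (GRCh38.p14), on the strand of the gene, and none of the 4 motifs was found in either stretch or 300-base window.
COX6A2, chr16:31428361-31428480, minus strand: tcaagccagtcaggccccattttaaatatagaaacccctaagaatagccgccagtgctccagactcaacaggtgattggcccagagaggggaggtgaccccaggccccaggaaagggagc
COX6A1, chr12:120437993-120438112, plus strand: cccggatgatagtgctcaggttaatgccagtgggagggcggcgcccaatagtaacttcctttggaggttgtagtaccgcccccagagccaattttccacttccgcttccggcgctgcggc

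NDUFA4L2, the low-oxygen counterpart of NDUFA4, went the other way. At day 10 it had 18.0, 19.5 and 14.2 CPM in PERK KO and 3.36, 5.33 and 5.25 CPM in wild type (log2 fold change 1.90, SE 0.41, adjusted p = 0.00018, edgeR). At day 5 the order was the opposite, with 0.230, 0.108 and 0 CPM in PERK KO and 7.98, 7.41 and 7.36 CPM in wild type (log2 fold change -6.04, SE 0.66, adjusted p = 3.39e-09, edgeR). It was also lower in PERK KO at days 2 and 3 (log2 -1.74 and -2.50), although at day 2 the groups overlapped and the call was lost without wild-type day 2 replicate 3 (log2 -0.71, adjusted p = 0.344, edgeR). Its share of the TPM of NDUFA4 and NDUFA4L2 was 23.7% ± 2.81 in PERK KO and 3.96% ± 0.860 in wild type at day 10, and 0.191% ± 0.207 in PERK KO and 10.8% ± 1.07 in wild type at day 5 (SD, n = 3 each). NDUFA4 itself was lower in PERK KO by 1.04 at day 10. NDUFA4L2 overlaps exons of SHMT2 on the other strand, and the strand setting of the counting is not known. COX6B2, the testis form of subunit VIb, was higher in PERK KO at days 3, 5 and 10 (log2 1.05, 2.41 and 1.39), at 5.06, 4.21 and 3.99 CPM in PERK KO and 1.33, 0.774 and 0.446 CPM in wild type at day 5, under 1% of the pair with COX6B1. COX4I2, the lung form of subunit IV, had 1 count in PERK KO and 34 in wild type at day 5 (ratio 0.0298, 95% counting interval 0.000734 to 0.178) and was not called at day 10 (adjusted p = 0.464).

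Within the c-ring genes of wild type, ATP5MC1 had its lowest group mean at day 3, with 13.1, 15.6 and 23.0 CPM, against 55.5, 49.1 and 55.02 CPM at day 0 (log2 fold change -1.63, SE 0.25, adjusted p = 2.42e-06, edgeR). In PERK KO at day 3 it had 41.5, 46.7 and 51.1 CPM, above every wild-type library of that day (log2 fold change 1.43, SE 0.25, adjusted p = 2.1e-05, edgeR). The share of ATP5MC1 in the TPM of the 3 genes was 18.4% ± 2.27 in PERK KO and 8.28% ± 1.19 in wild type at day 3, and 7.10% ± 0.502 in PERK KO and 14.9% ± 0.760 in wild type at day 10 (SD, n = 3 each). ATP5MC3 took 21.2% ± 0.487 of the 3 in PERK KO and 34.7% ± 0.924 in wild type at day 10, and ATP5MC2 took 71.7% ± 0.852 in PERK KO and 50.5% ± 1.04 in wild type.

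**Figure D5:**
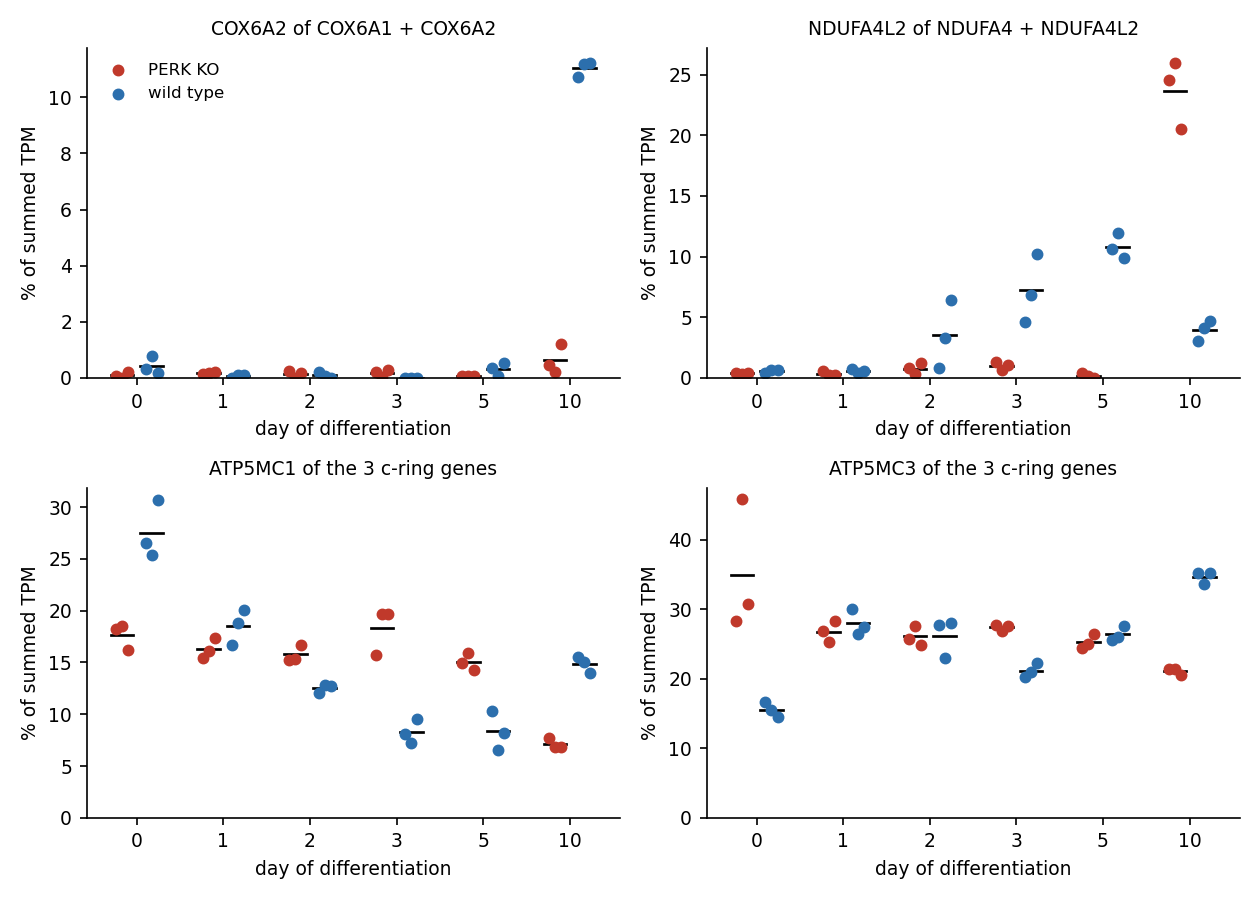
Share of summed TPM, in % (vertical axes), of 1 gene within its isoform set by day (horizontal axes) in each library, PERK KO in red left of wild type in blue, with black lines at group means. COX6A2 reaches 10.7% to 11.2% in wild type at day 10 only, and NDUFA4L2 reaches 20.5% to 25.9% in PERK KO at day 10.

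Earlier in the course the genotypes differed less, and mostly the other way. At day 1 no member was called in edgeR on all libraries (1 at an unadjusted p under 0.05), while 15.8% of all tested genes were (8.11% higher, 7.72% lower); without PERK KO day 0 replicate 2, 2 were lower. DESeq2 called 0, and the fit of the 6 libraries of that day called 14. The directions and the shares of all genes called in these fits are not given here, so these counts have no background. At day 2, 14 members were higher and 1 lower in PERK KO, against 42.6% of all genes called (20.9% as higher, 21.7% as lower), and at day 3, 15 were higher and 2 lower, against 45.1% of all genes (21.9% as higher, 23.2% as lower), so at both days the share of members called was below that of all genes in this fit. Without PERK KO day 0 replicate 2 the counts were 27 and 2 at day 2 and 34 and 3 at day 3, with 47.6% and 49.7% of all genes called. Without wild-type day 2 replicate 3 as well, 37 were higher and none lower at day 2, a share of 43.0% against 38.5% of all genes (18.8% as higher, 19.7% as lower), so the order of the shares at day 2 depends on these libraries.

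Markers differed at these days too. The 6 pluripotency markers summed to 5271 to 5518 CPM in PERK KO and 1272 to 1762 CPM in wild type at day 2, and to 5548 to 5949.8 CPM in PERK KO and 555 to 722 CPM in wild type at day 3, with none of the 6 under 1 CPM. The 8 cardiomyocyte markers summed to 71.0 to 80.4 CPM in PERK KO, with MYH6, MYH7 and NKX2-5 under 1 CPM, and to 312 to 644 CPM in wild type, with MYH7 under 1 CPM, at day 3. The 5 neuroectoderm markers summed to 130.01 to 151 CPM in PERK KO, with PAX6 under 1 CPM, and to 1.92 to 3.20 CPM in wild type, with all but SOX3 under 1 CPM, at day 3. Their part in the members' differences was not tested.

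COX7C, a small subunit of complex IV, had the smallest p of the members at both days. Its exons overlap those of AC108110.1 on the same strand, so its counts are uncertain. It had 192, 190.4 and 196 CPM in PERK KO and 98.7, 86.5 and 111 CPM in wild type at day 2, and 234, 206 and 214 CPM in PERK KO and 90.1, 99.1 and 108 CPM in wild type at day 3 (log2 fold change 1.14, SE 0.18, adjusted p = 4.24e-06, edgeR). The groups did not overlap at either day. UQCRB and NDUFS4, an accessory subunit of complex I, were higher at day 2 (log2 1.20 and 1.10). NDUFAB1, the mitochondrial acyl carrier protein that also sits in complex I, had 152, 154 and 176 CPM in PERK KO and 53.4, 62.1 and 68.7 CPM in wild type at day 3 (log2 fold change 1.39, SE 0.22, adjusted p = 4.28e-06, edgeR). SDHD, UQCRH and ATP5F1B were higher at day 3 as well (log2 0.83, 0.88 and 0.48). COX6A2 had 10 counts in PERK KO and 0 in wild type at day 3, at least 3.21-fold higher if 3 counts over the 3 wild-type libraries are taken as the limit of detection, and COX7A1 had 3 counts in PERK KO and 16 in wild type (ratio 0.181, 95% counting interval 0.0337 to 0.631). The wild-type libraries of these days were themselves spread: members in day 2 replicate 3 lay a median of 0.43 above the mean of the other libraries of the group on the log2 scale, and those in day 3 replicate 3 lay 0.34 above that mean and in replicate 1 0.32 below it.

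Day 5 was divided. In PERK KO 12 members were higher and 20 lower, against 59.0% of all genes called, 28.6% as higher and 30.5% as lower. The members' share of 37.2% lay below that of all genes in this fit. Without PERK KO day 0 replicate 2 the members higher and lower were 16 and 42, a share of 67.4%. Of all genes 62.8% were then called, 30.5% as higher and 32.2% as lower. The order of the shares at day 5 thus depends on this library of another day. The 8 cardiomyocyte markers summed to 55.3 to 61.4 CPM in PERK KO, with MYH7 and NKX2-5 under 1 CPM, and to 6614 to 10419 CPM in wild type, with none under 1 CPM. The 6 pluripotency markers summed to 3794 to 4004 CPM in PERK KO, with none under 1 CPM, and to 743 to 791 CPM in wild type, with NANOG under 1 CPM. The 2 tested fibroblast markers summed to 190.1 to 225 CPM in PERK KO, with COL3A1 under 1 CPM, and to 2909 to 3613 CPM in wild type. The 5 neuroectoderm markers summed to 214 to 243 CPM in PERK KO, with PAX6 under 1 CPM, and to 2.15 to 3.48 CPM in wild type, with all but SOX3 under 1 CPM. What part these have in the day 5 differences was not tested. ATP5F1A had 547, 582 and 579 CPM in PERK KO and 965, 866 and 987 CPM in wild type (log2 fold change -0.72, SE 0.14, adjusted p = 6.38e-05, edgeR), and NDUFA10, UQCRC2, ATP5MC2, ATP5F1B and SDHA were lower too (log2 -0.47, -0.38, -0.65, -0.47 and -0.44). SDHD was higher, at 48.6, 59.2 and 54.2 CPM in PERK KO and 26.6, 28.2 and 37.2 CPM in wild type (log2 fold change 0.82, SE 0.19, adjusted p = 0.000404, edgeR), on the day when SDHA and SDHC (log2 -0.33) of the same complex were lower. UQCRB, COX7C, UQCRH and NDUFA5 were also higher (log2 1.00, 0.78, 0.74 and 1.04). SDHD overlaps exons of TIMM8B on the other strand, so its counts are uncertain if strand was not used.

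At day 0 the result turned on PERK KO day 0 replicate 2. With all libraries 40 of 86 members were higher in PERK KO and none lower (median log2 fold change 0.62), against 21.1% of all genes called, 12.5% as higher and 8.64% as lower. Without replicate 2, 15 were higher and 12 lower (median -0.022), against 22.4% of all genes. SDHC was higher in both fits: it had 158, 259.9 and 166 CPM in PERK KO and 103, 106 and 105 CPM in wild type, and its log2 fold change was 0.90 with replicate 2 and 0.64 without it (adjusted p = 1.51e-05 and 1.03e-05, edgeR). UQCRC2 (0.66 and 0.55), COX7A2L (1.41 and 0.79) and ATP5MC3 (1.63 and 0.85) were higher in both as well. COX6B1, with 78.8, 290.4 and 90.1 CPM in PERK KO and 141, 125 and 123 CPM in wild type, was not called with replicate 2 (log2 0.24) and lower without it (log2 -0.62, adjusted p = 0.00383). A fit of only the 6 day 0 libraries called 0 members, and the share of all genes called in it is not given here.

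The course within PERK KO depends on the same library. Against PERK KO day 0, the members higher and lower were 3 and 46 at day 1, 4 and 36 at day 2, 1 and 31 at day 3, 4 and 59 at day 5, and 5 and 69 at day 10, against 43.1%, 41.4%, 40.3%, 48.8% and 61.8% of all genes called. Of all genes, 18.0%, 17.5%, 18.5%, 21.5% and 29.9% were called as higher and 25.1%, 23.8%, 21.8%, 27.3% and 31.9% as lower. Without replicate 2 they were 11 and 6, 17 and 5, 18 and 3, 9 and 17, and 7 and 51, against 34.0%, 34.4%, 35.3%, 40.2% and 55.9%. Both fits had most called members lower at day 10, with a median log2 fold change of -1.06 with replicate 2 and -0.39 without it. At days 1 to 3 most of the called members were lower with replicate 2 and higher without it. SDHA had 44.1, 39.5 and 41.1 CPM at day 10, against 88.99, 131 and 97.0 CPM at day 0 (log2 -1.34 and -1.16, adjusted p = 3.63e-09 and 6.53e-09, with and without replicate 2, edgeR). ATP5MC1 had 12.95, 10.9 and 11.6 CPM at day 10, against 40.8, 113 and 40.8 CPM at day 0 (log2 -2.45 and -1.78), and COX5A 51.8, 53.3 and 48.6 CPM at day 10, against 129, 297 and 130.2 CPM at day 0 (log2 -1.86 and -1.33). NDUFA4L2 rose by 6.20 on the log2 scale with replicate 2 and 6.54 without it, and COX4I2 had 54 counts at day 10 and 2 at day 0 (ratio 19.4, 95% counting interval 5.11 to 164).

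Whether the genotype difference changed over the days was tested with a genotype-by-day interaction over all 6 days. It was called for 78 of 86 members (85 without PERK KO day 0 replicate 2), against 80.9% of all tested genes (82.4%). The smallest p were those of SDHA (adjusted p = 2.36e-14), UQCRC2, ATP5F1A, NDUFA10, ATP5MC1 and ATP5F1B (edgeR).

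Genes that work beside the respiratory chain were counted from lists of known members. Their counts stand against 67.3% of all genes called between genotypes at day 10 (34.0% as lower, 33.3% as higher) and 69.2% called in wild type at day 10 against day 0 (34.9% as higher, 34.3% as lower), and no list was tested against other genes. Of the 13 proteins encoded in mitochondrial DNA, all 13 transcripts were lower in PERK KO at day 10 (median log2 fold change -1.45); in wild type, 3 were higher and 5 lower at day 10 than at day 0. MT-CO3, a core subunit of complex IV, had 2027 ± 107 CPM in PERK KO and 5366 ± 256 CPM in wild type (log2 fold change -1.41, SE 0.13, adjusted p = 6.35e-11, edgeR). Of 18 genes of the citric acid cycle and pyruvate dehydrogenase, 15 were lower and 1 higher (median -1.504), among them CS, citrate synthase, with 198, 187 and 195 CPM in PERK KO and 736, 936 and 892 CPM in wild type (log2 fold change -2.14, SE 0.13, adjusted p = 3.26e-15, edgeR). IDH3A, a further enzyme of the cycle, was lower too, by 2.88 on the log2 scale. In wild type 15 of the 18 were higher and 1 lower at day 10 than at day 0. Of 25 genes for electron carriers and for transport of ADP and ATP, 19 were lower and 1 higher (median -1.09). SLC25A4, the ADP/ATP carrier of heart and muscle, had 24.3, 22.8 and 22.8 CPM in PERK KO and 185, 189.9 and 200.4 CPM in wild type (log2 fold change -3.04, SE 0.18, adjusted p = 4.29e-15, edgeR); at day 3 it was higher in PERK KO, at 80.9, 84.4 and 91.0 CPM, against 15.8, 17.9 and 21.5 CPM in wild type (log2 2.22).

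Of 51 tested assembly factors, 20 were lower and 11 higher in PERK KO at day 10, with a median log2 fold change of -0.34. Their share called (60.8%) and share lower (39.2%) were near those of all genes, while their share higher was 21.6%, against 33.3% of all genes. COX10, which makes the heme of complex IV, and ECSIT, a factor for complex I, were lower in PERK KO by 2.05 and 3.06. NDUFAF7, a methyltransferase for complex I, had 81.4, 76.7 and 81.0 CPM in PERK KO and 17.5, 19.5 and 19.2 CPM in wild type at day 5 (log2 fold change 2.09, SE 0.11, adjusted p = 4.04e-16, edgeR). In wild type at day 10, 13 of the 51 were higher and 17 lower than at day 0 (median -0.22), against 57 and 3 of the 86 respiratory chain genes (median 0.73).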

How the data were processed

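Per the labels, mRNA libraries were made from total RNA of 36 samples of H1 cells and sequenced as paired 150-base reads. Per the submitters' processing notes, CASAVA, FastQC, STAR and RSEM were used with GRCh38; their versions and strand settings were not given in the sources used here. The authors deposited expected counts, TPM and effective lengths per gene, as RSEM writes them, with 6.53% to 9.43% of the expected counts not whole. The authors' TPM sum to the same total in every library.

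Expected counts were rounded and fitted with edgeR 4.0.16 (R 4.3.3), with filterByExpr (19772 genes kept), TMM scaling, 12 groups and a quasi-likelihood F test (24 residual degrees of freedom; biological coefficient of variation 18.7%). P-values were Benjamini-Hochberg adjusted over all tested genes, a call is an adjusted p under 0.05, and the SE is the log2 fold change over the root of F. Values in CPM use TMM library sizes. Ratios of 1 to 3 counts carry exact 95% binomial intervals, which cover counting error only, and a group at 0 is set to a floor of 3 counts. Lists and members were chosen with earlier results of these data known. All members may be named; full statistics went to isoform sets, SDH genes, the inhibitor and the members with the smallest p. The procedure was tested on simulated data. Of the 89 members, 41 share exon sequence with another gene in GENCODE 29 (21 on the same strand, 28 on the other). This was pointed out above for some of them only. NDUFV1, COX6A1 and COX6B2, for example, also overlap another gene on the same strand. A further 150 pseudogenes named after 43 members, left out here, hold 0.077% to 0.153% of the members' counts. Pseudogenes of the SDH genes are not among these 150. Alternatives were RLE scaling, other filters, DESeq2 1.42.0, fits by day, replicate blocks, a transcript length offset, added pseudogene counts and libraries left out.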

Additional observations from a re-analysis of the deposited data

Results flagged for a closer look

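The difference between PERK KO and wild type varied over the 6 days for 78 of the 86 tested members, by the genotype-by-day interaction in edgeR's quasi-likelihood test, against 80.9% of all tested genes (85 members and 82.4% without PERK KO day 0 replicate 2). The effects at single days had opposite signs for several of them. SDHA (adjusted p = 2.36e-14) had log2 fold changes of 0.27 at day 3, not called, and -3.02 at day 10, lower in 3 of 3 PERK KO libraries. UQCRC2 (adjusted p = 1.27e-12) was higher in PERK KO at day 0 (log2 0.66, and 0.55 without replicate 2) and lower at day 10 (-1.39). ATP5F1A (adjusted p = 2.72e-10) and NDUFA10 (adjusted p = 3.69e-10) were lower at day 5 (-0.72 and -0.47) and at day 10 (-1.65 and -1.35). ATP5MC1 (adjusted p = 6.78e-10) was higher at day 3 (1.43) and lower at day 10 (-2.82), and ATP5F1B (adjusted p = 2.38e-09) likewise (0.48 and -1.83).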

How the results depend on the processing

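No member count moved by over 1.5 times under RLE scaling, other filters, DESeq2, added pseudogene counts, the length offset alone or the replicate block over all libraries. Leaving out each library in turn gave 26 to 59 members called in PERK KO against wild type at day 0, 0 to 2 at day 1, 9 to 29 at day 2, 11 to 37 at day 3, 21 to 58 at day 5 and 66 to 77 at day 10. For wild type against its day 0 the ranges were 18 to 43, 17 to 36, 19 to 41, 19 to 42 and 51 to 71 from day 1 to day 10, for PERK KO 17 to 64, 22 to 59, 21 to 55, 26 to 72 and 58 to 77, and for the interaction 76 to 85. The upper ends at days 2, 3 and 5 between genotypes and the lower ends within PERK KO came from leaving out PERK KO day 0 replicate 2. Other libraries whose absence moved a count by over 1.5 times were wild-type day 0 replicates 2 and 3 (26 at day 0 for either), PERK KO day 1 replicate 1 (1 at day 1), PERK KO day 2 replicate 2 (9 at day 2), PERK KO day 3 replicate 3 (11 at day 3), wild-type and PERK KO day 5 replicate 1 (21 at day 5 for either), PERK KO day 2 replicates 1 and 3 (26 and 24 against its day 0) and PERK KO day 0 replicates 1 and 3 (55 and 50 at day 3 against day 0).

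The labels do not say whether same-numbered replicates are paired, so the block is given as a check only. Their deviations correlated at -0.13 to 0.32 over all days. At day 3 the same-numbered replicates 1, 2 and 3 correlated at 0.32, -0.011 and 0.28. There PERK KO replicate 1 with wild-type replicate 3 gave -0.32, and PERK KO replicate 3 with wild-type replicate 1 gave -0.29. These values do not settle whether replicates are paired. Fits of the 6 libraries of a day called 0 members at day 0, 14 at day 1 and 63 at day 5. With the replicate block within the day they called 0 (day 0), 13 (day 1), 30 (day 3) and 61 (day 5). The shares of all genes called in these fits are not given here, so the counts cannot be set against a background. Without both libraries that stand apart (replicate 2 of PERK KO day 0 and replicate 3 of wild-type day 2) PERK KO against wild type had 5, 37, 42 and 60 calls at days 1, 2, 3 and 5, wild type against day 0 had 48, 39, 44 and 44, and PERK KO against day 0 had 17 at day 1 and 32 at day 5. A length offset with PERK KO day 0 replicate 2 left out, added after the data were seen, gave 24, 3, 33, 35 and 57 for PERK KO against wild type at days 0 to 5, 43, 46 and 45 for wild type at days 1, 3 and 5, and 16, 18, 20 and 21 for PERK KO at days 1 to 5. On TPM rescaled to genes outside the mitochondrial genome and ribosomal proteins, the log2 ratio of the members' sum was 0.25 at day 2 and -0.83 at day 10. The causes were not tested.

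Of 223 named results, 123 kept direction and call throughout. Directions that turned, as log2 fold changes, all lay near 0 except ATP5S. With the length offset ATP5S was at -0.24 at day 10 in PERK KO against wild type (also -0.24 with the library left out) and at 0.78 (0.78) in wild type at day 10, and SDHC in wild type at day 3 was at -0.063 (-0.062). The others turned when PERK KO day 0 replicate 2 was left out, alone, with wild-type day 2 replicate 3 (without both) or with the length offset (with the offset). In PERK KO against wild type at day 0 these were COX4I1 (-0.0876 without both, -0.13 with the offset, -0.0914 to 1.10 over single libraries). In PERK KO at day 1 against day 0 these were COX4I1 (0.21 without both, 0.18 with the offset, -0.99 to 0.21 over single libraries), COX6A1 (0.21 without both, 0.13 with the offset, -1.14 to 0.21 over single libraries), COX6B1 (0.16 without both, 0.0759 with the offset, -1.01 to 0.16 over single libraries), COX7B (0.0209 without both, -1.09 to 0.0216 over single libraries), ATP5MC1 (0.0267 with the offset), UQCRH (0.0802 without both, 0.0064 with the offset, -0.75 to 0.0808 over single libraries). In PERK KO at day 2 against day 0 these were COX6A1 (0.15 without both, 0.0841 with the offset, -1.20 to 0.15 over single libraries), COX7A2L (0.0803 without both, 0.0753 with the offset, -0.78 to 0.0826 over single libraries), COX7B (0.0478 without both, -1.06 to 0.05 over single libraries), ATP5MC1 (0.10 with the offset), ATP5MC3 (0.011 without both, 0.044 with the offset, -1.08 to 0.0134 over single libraries), ATP5IF1 (0.0278 without both, 0.0211 with the offset, -0.59 to 0.0301 over single libraries). In PERK KO at day 3 against day 0 these were COX6A1 (0.18 without both, 0.14 with the offset, -1.13 to 0.18 over single libraries), COX7A2 (0.059 without both, 0.0495 with the offset, -1.13 to 0.0608 over single libraries), ATP5MC3 (0.0332 without both, 0.0938 with the offset, -1.02 to 0.0349 over single libraries). In PERK KO at day 5 against day 0 these were COX4I1 (0.17 without both, 0.15 with the offset, -1.03 to 0.17 over single libraries), ATP5MC2 (0.0063 with the offset). In PERK KO at day 10 against day 0 these were ATP5MC2 (0.0022 without both, -0.61 to 0.0107 over single libraries).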

Other observations

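Genes known to regulate nuclear respiratory chain genes or to copy and read mitochondrial DNA (20, all tested) were split at day 10: in PERK KO 7 were higher and 9 lower than in wild type (80.0% called, against 67.3% of all genes), with a median log2 fold change of -0.029 in edgeR. PPARGC1A, a coactivator of mitochondrial biogenesis, had 3.20, 1.35 and 2.72 CPM in PERK KO and 152, 84.7 and 71.3 CPM in wild type (log2 fold change -5.40, SE 0.46, adjusted p = 1.27e-11), and at day 5 0.804, 0.865 and 1.48 CPM in PERK KO and 22.4, 18.4 and 32.4 CPM in wild type (log2 -4.52). Its relative PPARGC1B was higher in PERK KO at day 5, at 20.0, 18.7 and 19.6 CPM against 2.85, 2.10 and 3.17 CPM in wild type (log2 2.84), and lower at day 10, at 1.73, 1.66 and 1.64 CPM in PERK KO against 18.5, 17.1 and 23.6 CPM in wild type (log2 -3.56). ESRRA, an oestrogen-related receptor, had 14.8, 13.9 and 14.9 CPM in PERK KO and 78.4, 88.97 and 109.7 CPM in wild type at day 10 (log2 -2.67).

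TFAM, which packages mitochondrial DNA, and GABPA, an ETS factor, were higher in PERK KO at day 10 (log2 1.72 and 2.01), while NRF1 was not called (0.28, adjusted p = 0.167); these 3 were chosen after their values were seen. TFAM had 53.1, 51.6 and 56.0 CPM in PERK KO and 22.6, 15.6 and 10.2 CPM in wild type, without overlap.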
